A study of Mus musculus with 12 samples.

Results

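The genes described here are 37 genes of autophagy, mitophagy and the lysosome, measured in the mouse pro-erythroblast line I/11. Each gene was read by the brightest probe set annotated to it alone, and 36 of the 37 had such a probe set, among 18195 genes of the array with one. All 36 lay above the signal filter (log2 1.45) that left 12673 genes for testing. They are 3 transcription factors, 18 of the 19 listed genes of the autophagy machinery and its cargo receptors, and 15 lysosomal genes. Bnip3l, which encodes the mitochondrial receptor needed to clear mitochondria from maturing red cells, has no value here, because all 3 of its probe sets are annotated to a pseudogene, Bnip3l-ps, as well.

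RNA came from cells stably infected with a lentiviral vector that carried sh14 or sh133, both hairpins against Plcg1 (phospholipase C gamma 1), or scr, a scrambled hairpin. All 3 lines carried the same puromycin-selectable vector type and belong to a line expanded without serum in erythropoietin, stem cell factor and dexamethasone. Each line was sampled at 1, 6, 12 and 22 h with 1 array per line and time, 12 arrays in all, and the event from which the hours count is not given in the sources used here. The labels do not say whether a line is a single clone, or that the arrays of a line are separate cultures. With 1 array per line and time, p-values measure how far these arrays depart from parallel time courses of the lines. That departure may be technical or may be a time course that differs between lines. The array titles carry 2 date strings, whose meaning is not stated. All sh14 arrays and the sh133 arrays of 6 and 12 h carry the first, and all scr arrays and the sh133 arrays of 1 and 22 h carry the second. No sh14 array therefore shares a date string with scr, and the tests below include the date string as a term unless a fit without it or within 1 date string is named. Only sh133 carries both strings, so a date effect and a time course particular to sh133 cannot be told apart. With the term, sh14 against sh133 takes the sh133 level from the 6 and 12 h arrays. In sh133 against scr that level comes from the 1 and 22 h arrays, and sh14 against scr runs through sh133.

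In autophagy, a membrane grows around cytoplasm or an organelle, small ubiquitin-like proteins of the LC3 and GABARAP families are coupled to that membrane, and cargo receptors bind them. The closed autophagosome fuses with a lysosome, whose acid hydrolases degrade the content and whose proton pump keeps it acid. Maturing erythroblasts use this route to remove mitochondria and other organelles, and FOXO3 and GATA1 are known to raise autophagy genes in erythroid cells, while TFEB and TFE3 bind E-box motifs of lysosomal genes.

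Array medians lay between log2 1.84 and 1.92, and correlations between arrays between 0.983 and 0.997. The targeted gene, Plcg1, had signals of 4.16, 3.86, 4.27 and 4.30 in sh14 and 4.53, 4.35, 4.37 and 4.39 in sh133, against 4.74, 4.45, 4.61 and 4.31 in scr (log2, at 1, 6, 12 and 22 h). It differed from scr by -0.36 ± 0.22 (SE) in sh14 and by -0.11 ± 0.14 in sh133, and neither difference passed the test (limma adjusted p 0.456 and 0.767). All sh14 arrays were below the scr array of the same time, and the ranges of sh133 and scr overlapped. Of 12 erythroid markers, 10 had a probe set of their own. Klf1, Gata1 and Tfrc were among the bright ones, with means of 9.11, 8.12 and 10.0 in sh14, 9.41, 8.33 and 9.99 in sh133, and 9.63, 8.23 and 10.18 in scr, while Hba-a1 lay below the signal filter. Of 12 macrophage markers, 8 lay below the filter, and the mean signal of that list was 1.55 to 1.65 in sh14, 1.48 to 1.63 in sh133 and 1.43 to 1.53 in scr.

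**Figure D1:**
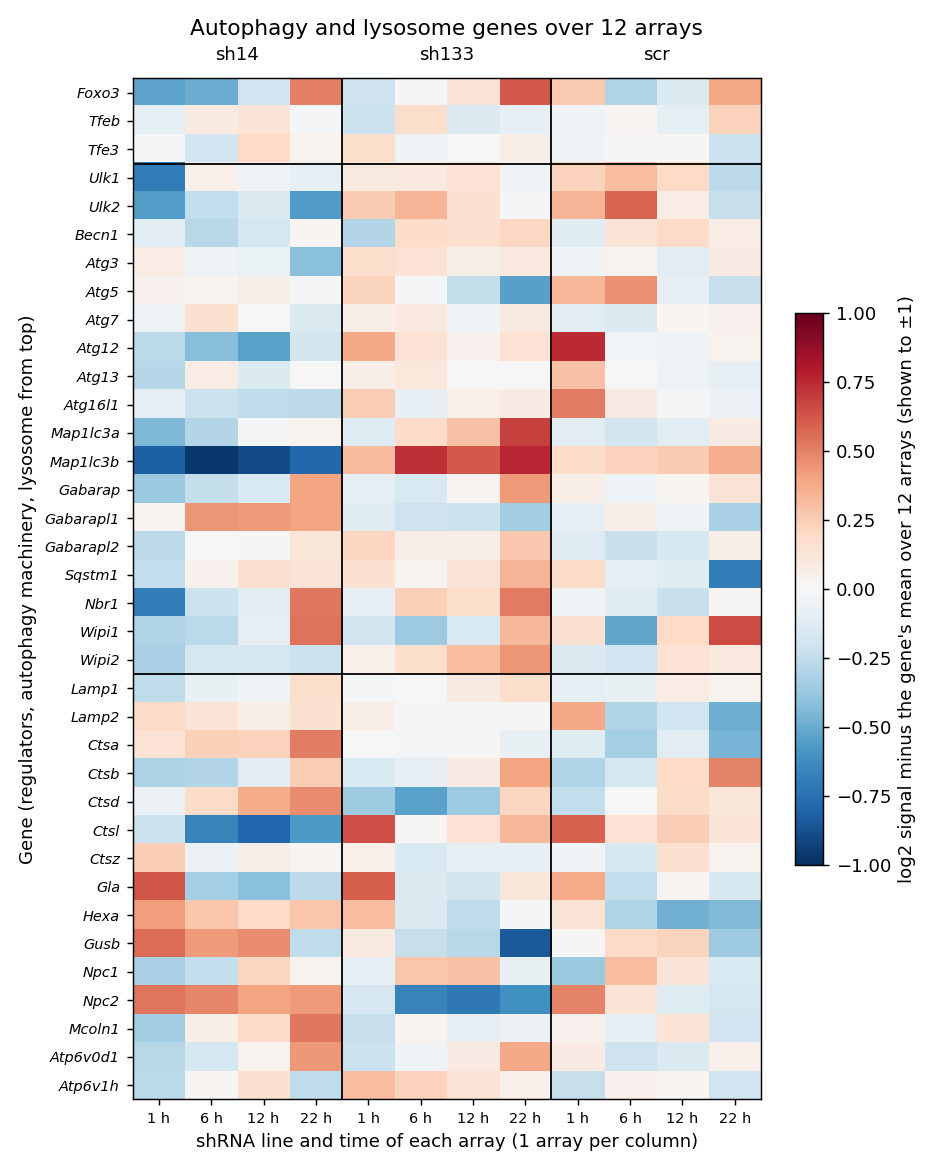
Signal of each autophagy and lysosome gene on each array as the difference from that gene's own mean over the 12 arrays (log2, colour scale), with arrays in columns by line (sh14, sh133, scr) and time, and genes in rows by group. Map1lc3b stands out as low on all 4 sh14 arrays, and Ctsb is low at 1 h and high at 22 h in all 3 lines.

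Few of the autophagy and lysosome genes passed the threshold between a hairpin and scr. With both hairpins set together against scr, 0 of the 36 genes passed the threshold (limma, adjusted p under 0.05), against 276 of 12673 genes (2.18%), and 5 of the 36 and 1857 of all genes had an unadjusted p under 0.05. In sh133 against scr the count was also 0 of 36, against 622 genes (4.91%), and 7 of the 36 and 2231 of all genes had an unadjusted p under 0.05. In sh14 against scr, 2 of 36 passed, against 388 genes (3.06%): Map1lc3b was lower and Ctsd was higher. There, 9 of the 36 and 2162 of all genes had an unadjusted p under 0.05. Nearest to the threshold without passing were Hexa (0.74) and Ctsl (-0.68) in sh14, and Npc2 (-0.52) and Atp6v1h (0.42) in sh133. Their limma adjusted p lay from 0.05 to 0.0592. The median absolute difference over the 36 genes was 0.15 for both hairpins, 0.20 for sh14 and 0.14 for sh133, and over all genes tested it was 0.15, 0.20 and 0.13 (log2).

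Map1lc3b encodes LC3B, the ubiquitin-like protein that marks autophagosome membranes. Its signal was 7.48, 7.33, 7.40 and 7.51 in sh14 and 8.61, 9.03, 8.91 and 9.06 in sh133, against 8.48, 8.53, 8.56 and 8.66 in scr (log2, at 1, 6, 12 and 22 h). Every sh14 array lay below every array of the other lines, and the sh133 arrays lay above the scr array of the same time at all 4 times. The fitted difference of sh14 from scr was -1.35 ± 0.18 (SE, 95% interval -1.74 to -0.95, n = 4 arrays each), which is 39.4% of the scr level (limma adjusted p 0.00388). Without the date term, which rests on sh133, the difference was -1.13 (limma adjusted p 1.01e-05). In sh133 the difference from scr was 0.24 on the log2 scale and did not pass the test. The size in sh14 differed between probe sets of the gene. The next brightest probe sets of Map1lc3b differed from scr by -0.30 and -0.18 in sh14, and with the mean over all probe sets of a gene the sh14 difference was -0.55 and the call was lost (limma adjusted p 0.144). On the first of these, the signals were 7.40, 7.25, 7.45 and 7.65 in sh14 and 8.08, 8.12, 8.10 and 8.35 in sh133, against 7.85, 7.74, 7.51 and 7.66 in scr, so that the ranges of sh14 and scr overlapped.

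Ctsd encodes cathepsin D, the aspartic protease of lysosomes. Its signal was 7.65, 7.89, 8.08 and 8.18 in sh14 and 7.35, 7.17, 7.34 and 7.92 in sh133, against 7.46, 7.71, 7.89 and 7.83 in scr. The sh14 arrays were above scr by 0.18, 0.18, 0.19 and 0.35 at matched times, but their ranges overlapped. The fitted difference of sh14 from scr was 0.71 ± 0.15 (SE, limma adjusted p 0.0319), and the same fit gave the date string an effect of -0.49 on Ctsd. Without that term the difference was 0.23 and did not pass (adjusted p 0.17). The call was also lost on leaving out any of 9 of the 12 arrays, with differences of 0.63 to 0.77 over all 12 omissions and adjusted p up to 0.175. These were the 6 and 12 h arrays of sh14, all 4 arrays of sh133, and the 6, 12 and 22 h arrays of scr.

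**Figure D2:**
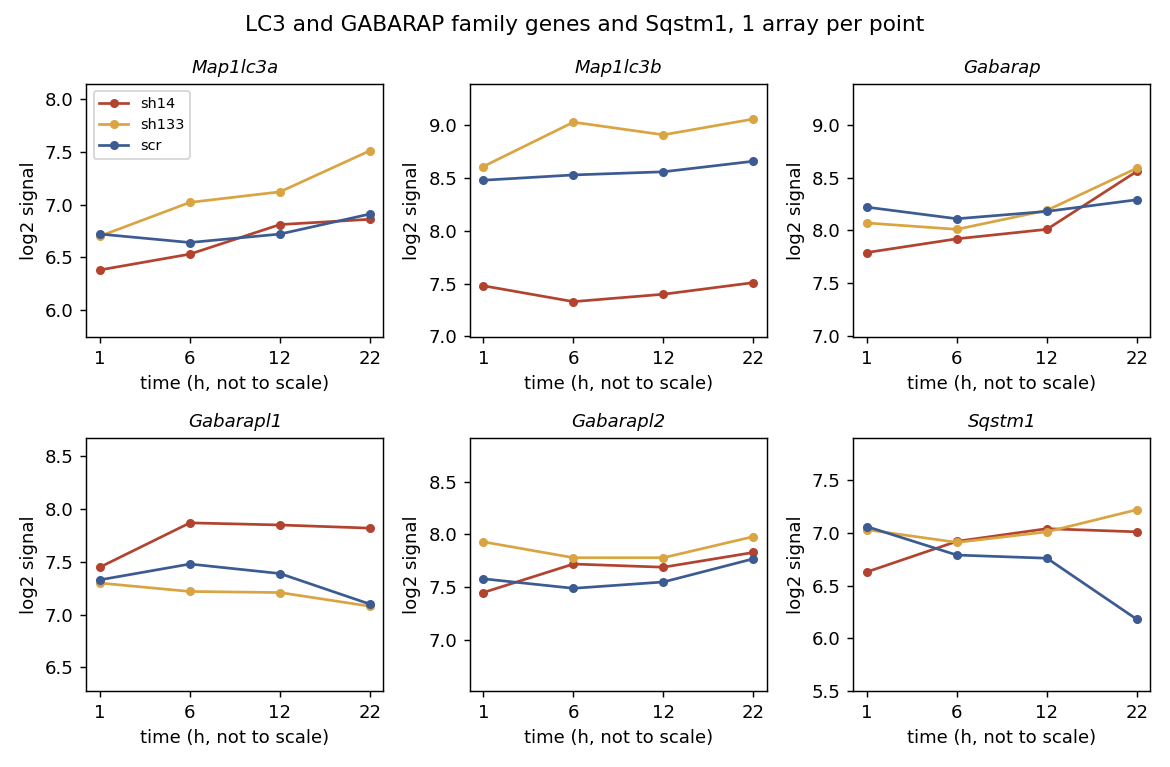
Log2 signal of the LC3 and GABARAP family genes and of Sqstm1 over time, 1 array per point, with sh14, sh133 and scr as separate lines and each panel spanning the same number of log2 units. Map1lc3b in sh14 lies at or below 7.51 at every time, whereas the other lines lie at or above 8.48, and Gabarap is highest at 22 h in all 3 lines.

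The hairpins also differed from each other. In sh14 against sh133, 9 of 36 genes (25.0%) passed the threshold, against 1856 of 12673 genes (14.6%). Of the autophagy machinery 4 of 18 changed, with Map1lc3b, Atg12 and Wipi2 lower and Gabarapl1 higher in sh14. Of the lysosomal genes 5 of 15 changed, with Ctsd, Hexa, Gusb and Npc2 higher and Ctsl lower in sh14. None of the 3 transcription factors passed in this fit. All 9 had the same sign at all 4 times. The median absolute difference was 0.23 over the autophagy machinery and 0.18 over the lysosomal genes, against 0.17 over all genes (log2).

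Among the LC3 and GABARAP genes the hairpins differed in opposite directions for 2 members. For Map1lc3b, sh14 differed from sh133 by -1.58 ± 0.12 (SE, 95% interval -1.84 to -1.32), or 33.4% of the sh133 level (limma adjusted p 3.7e-05). The next brightest probe sets gave -0.75 and -0.85, and the call held under all 18 alternatives tried. On those probe sets sh133 was above scr by 0.45 and 0.67, while sh14 differed from scr by only -0.30 and -0.18. Gabarapl1, a GABARAP family member, had signals of 7.45, 7.87, 7.85 and 7.82 in sh14 and 7.30, 7.22, 7.21 and 7.08 in sh133, against 7.33, 7.48, 7.39 and 7.10 in scr. Every sh14 array was above every sh133 array, and the scr range overlapped both. Gabarapl1 was 1.56-fold higher in sh14 than in sh133, by 0.64 ± 0.14 on the log2 scale (limma adjusted p 0.0122), and its second probe set gave 0.65. The call was lost on leaving out the 6 or 12 h array of either hairpin (adjusted p up to 0.152, differences 0.59 to 0.70 over all omissions). The differences of the other LC3 and GABARAP genes did not pass, at -0.45 for Map1lc3a, -0.10 for Gabarap and -0.13 for Gabarapl2.

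Atg12, the ubiquitin-like protein coupled to ATG5, had signals of 4.87, 4.71, 4.60 and 4.95 in sh14 and 5.52, 5.28, 5.18 and 5.28 in sh133, against 5.88, 5.11, 5.10 and 5.17 in scr. The sh14 arrays lay below all others, and the difference from sh133 was -0.62 ± 0.15 (SE, limma adjusted p 0.0236). Its second probe set gave 0.04, and the call was lost on leaving out the 6 or 12 h array of either hairpin (adjusted p up to 0.212). Wipi2, which binds the lipid of the growing membrane and recruits ATG16L1, differed by -0.44 ± 0.12 (SE, adjusted p 0.0308). Its second probe set gave 0.44 with the opposite sign, the mean over its probe sets gave 0.06, and the call was lost without the 12 h array of sh14, the 6 or the 12 h array of sh133 or the 6 h array of scr (adjusted p up to 0.259). The remaining genes of initiation and conjugation did not pass in sh14 against sh133. Ulk2, an initiating kinase, gave -0.47, Becn1, a subunit of the lipid kinase complex, gave -0.30, and Atg16l1, part of the LC3 coupling complex, gave -0.25. Atg7, the enzyme that activates LC3 and ATG12, gave 0.00, and its dimmer probe sets above the filter gave 0.81 and 0.47. Over the 14 genes of the autophagy machinery that did not pass, the differences ran from -0.47 (Ulk2) to 0.20 (Atg5), and over the 10 lysosomal genes that did not pass from -0.21 (Npc1) to 0.28 (Ctsa). Foxo3, at -0.46 ± 0.17 (SE), did not pass over all arrays (adjusted p 0.114) but passed within 1 date string (-0.41, adjusted p 0.0437).

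Of the lysosomal genes, Npc2 showed the largest difference between the hairpins. It encodes the soluble protein that carries cholesterol out of lysosomes together with NPC1. The gene lies on chromosome 12, and whether genes near it shared its difference was not tested. Its signal was 9.18, 9.13, 9.04 and 9.07 in sh14 and 8.48, 7.98, 7.93 and 8.03 in sh133, against 9.14, 8.77, 8.52 and 8.47 in scr. Every sh14 array lay above every sh133 array, and scr started at the sh14 level and ended between the hairpins. Npc2 was 2.14-fold higher in sh14 than in sh133 (1.10 ± 0.13 on the log2 scale, limma adjusted p 0.000608), a second bright probe set gave 1.11, and the call held under all 18 alternatives. Npc1, its membrane-bound partner, was dim, with a difference of -0.21 that did not pass.

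The cathepsins went different ways. Ctsl, the cysteine protease cathepsin L, had signals of 7.35, 6.89, 6.77 and 6.99 in sh14 and 8.21, 7.57, 7.71 and 7.89 in sh133, against 8.15, 7.71, 7.81 and 7.69 in scr. The sh14 arrays lay below all arrays of the other lines. Ctsl lies on chromosome 13, and whether genes near it shared its difference was not tested. Ctsl differed by -0.77 ± 0.11 (SE) between sh14 and sh133 (limma adjusted p 0.0016), a call lost without the 12 h array of sh133 (adjusted p 0.0542), and by -0.68 ± 0.17 between sh14 and scr, where it did not pass (adjusted p 0.0574). Ctsd was 1.68-fold higher in sh14 than in sh133 (0.75 ± 0.10 on the log2 scale, adjusted p 0.00105), and this call held under all 18 alternatives. Its ranges in the hairpin lines overlapped, and sh14 was above sh133 by 0.30, 0.72, 0.74 and 0.27 at matched times. The fitted 0.75 takes its sh133 level from the 6 and 12 h arrays, where the matched differences were the larger ones. Without the date term the Ctsd difference was 0.51 (limma adjusted p 0.00605). Ctsa, a serine carboxypeptidase that protects other lysosomal enzymes, had ordered lines, 6.73 to 7.09 in sh14, 6.51 to 6.59 in sh133 and 6.12 to 6.47 in scr, with no overlap, but its differences of 0.50 for sh14 against scr and 0.28 for sh14 against sh133 did not pass the test with the date term (adjusted p 0.288 and 0.256).

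The glycosidases Gusb and Hexa were higher in sh14. Gusb, beta-glucuronidase, had signals of 7.11, 6.98, 7.02 and 6.30 in sh14 and 6.64, 6.32, 6.27 and 5.71 in sh133, against 6.56, 6.74, 6.77 and 6.19 in scr. Its ranges overlapped, since all 3 lines were lowest at 22 h, but at each time sh14 was above sh133. It was 1.65-fold higher in sh14 than in sh133 (0.72 ± 0.13 on the log2 scale, limma adjusted p 0.00477), its second probe set gave -0.41 with the opposite sign, and the call was lost without the 6 or the 12 h array of sh133 (adjusted p up to 0.092). With the mean over its probe sets the Gusb difference was 0.16 and did not pass (adjusted p 0.613). Hexa, the alpha subunit of beta-hexosaminidase, had 7.03 to 7.25 in sh14 and 6.58 to 7.14 in sh133, against 6.35 to 6.97 in scr. Its difference from sh133 was 0.40 ± 0.12 (SE, adjusted p 0.0437), a call lost on leaving out any of 10 of the 12 arrays, all but the 1 h arrays of sh14 and scr (adjusted p up to 0.302), and with no signal filter.

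Within the 4 arrays of 6 and 12 h that carry 1 date string, which left 1 residual degree of freedom, 13 of the 36 genes passed in sh14 against sh133, against 2366 of 12673 genes (18.7%). They were the 9 genes above, with -1.61 for Map1lc3b, 1.13 for Npc2, -0.81 for Ctsl, 0.73 for Ctsd and 0.70 for Gusb, and Ulk2 (-0.45), Foxo3 (-0.41), Becn1 (-0.40) and Map1lc3a (-0.40), with limma adjusted p of 0.0427 to 0.0472 for these 4. These arrays are part of the comparison over all arrays, where the date term also leaves the sh133 level resting on the 6 and 12 h arrays. Close values in both fits follow from that design and are no separate check. Markers of other blood cells also differed between the hairpins. Of the 6 mast cell and basophil markers tested, 3 were higher in sh14 than in sh133, led by Fcer1a (3.12) and Ms4a2 (1.87), and 3 of 9 erythroid markers were lower, led by Alas2 (-2.49) and Slc4a1 (-1.55). The mean signal of the 8 mast cell and basophil markers with a probe set was 2.54 to 3.10 in sh14 and 1.83 to 2.39 in sh133, against 1.99 to 2.55 in scr, with Mcpt8 and Tpsab1 below the filter. Of 4 megakaryocyte markers tested, Itga2b was higher (1.46) and Pf4 lower (-2.34) in sh14 than in sh133. The mean signal of the 5 with a probe set was 3.35 to 4.11 in sh14 and 3.11 to 3.90 in sh133, against 2.69 to 3.01 in scr. Fewer cells of a type and less RNA per cell cannot be told apart in bulk RNA, and the part of these markers in the differences above was not tested.

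**Figure D3:**
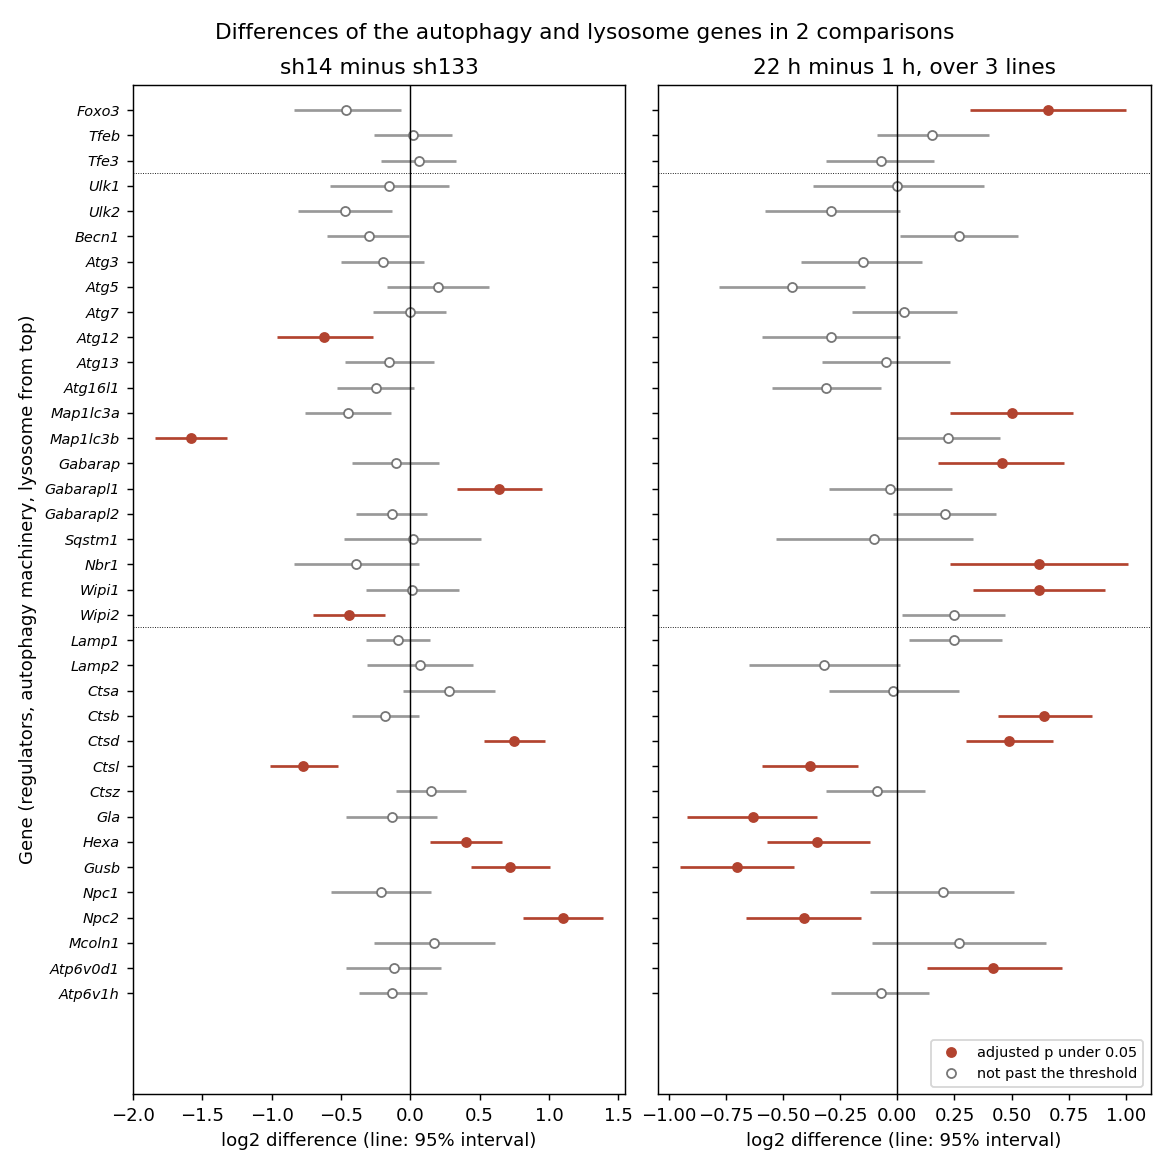
Fitted log2 differences with 95% intervals for the 36 genes, sh14 minus sh133 on the left (4 arrays each) and 22 h minus 1 h over 3 lines on the right (3 arrays each). Filled points passed an adjusted p of 0.05, 9 on the left with Map1lc3b at -1.58, and 13 on the right with all 4 autophagy genes above 0 and the lysosomal genes on both sides.

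Several lysosomal genes changed with time, in both directions. At 22 h against 1 h, 13 of 36 genes (36.1%) passed the threshold, against 2291 of 12673 genes (18.1%), with 8 higher and 5 lower at 22 h. Of the autophagy machinery 4 of 18 (22.2%) rose and none fell. Of the lysosomal genes 8 of 15 (53.3%) changed, 3 higher and 5 lower, with a median absolute difference of 0.35 against 0.17 over all genes (log2). Of the transcription factors, Foxo3 rose. In the same comparison 9 of 9 erythroid markers tested changed, 8 of them higher at 22 h, with Epb42 at 2.05, Alas2 at 2.01 and Kit at -1.33. The mean signal of the 10 erythroid markers with a probe set was 7.00 at 22 h and 6.01 at 1 h in sh14, 7.25 and 6.39 in sh133, and 7.34 and 6.41 in scr. Of 6 mast cell and basophil markers tested, 3 were lower at 22 h (Hdc at -3.29, Ms4a2 at -1.30 and Cpa3 at -1.06) and Cma1 was higher (0.39). The mean signal of the 8 with a probe set was 2.54 at 22 h and 3.10 at 1 h in sh14, 1.83 and 2.39 in sh133, and 1.99 and 2.55 in scr. The part of these marker changes in the results below was not tested.

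Foxo3, the forkhead factor, had signals of 6.58, 6.61, 6.91 and 7.61 in sh14, 6.90, 7.10, 7.24 and 7.72 in sh133, and 7.37, 6.81, 6.97 and 7.50 in scr. Each line was highest at 22 h, but scr was only 0.13 above its 1 h array. The fitted difference was 0.66 ± 0.15 (SE, n = 3 arrays each, limma adjusted p 0.014). It did not pass without the 22 h array of sh14 or the 1 or 22 h array of sh133 (adjusted p up to 0.0997, differences 0.49 to 0.89). Tfeb and Tfe3, the E-box factors, did not pass, at 0.15 ± 0.11 and -0.07 ± 0.11.

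The autophagy genes higher at 22 h were Wipi1, Nbr1, Map1lc3a and Gabarap. Wipi1, a lipid-binding protein of the growing membrane, had 6.48, 6.27 and 6.59 at 22 h and 5.64, 5.76 and 6.09 at 1 h (sh14, sh133 and scr), and all 22 h arrays lay above all 1 h arrays. Its difference was 0.62 ± 0.13 (SE, limma adjusted p 0.00948) and passed on leaving out each array in turn. Gabarap had 8.56, 8.59 and 8.29 at 22 h and 7.79, 8.07 and 8.22 at 1 h, a difference of 0.46 ± 0.12 (adjusted p 0.0284) in which scr moved by 0.08. Map1lc3a, encoding LC3A, had 6.86, 7.51 and 6.91 at 22 h and 6.38, 6.70 and 6.72 at 1 h, a difference of 0.50 ± 0.12 (adjusted p 0.0187). The call for Gabarap was lost without the 1 or 22 h array of either hairpin (adjusted p up to 0.14), and that for Map1lc3a without the 1 h array of sh14 or the 1 or 22 h array of sh133 (adjusted p up to 0.144). Nbr1, a cargo receptor, had 7.51, 7.50 and 6.99 at 22 h and 6.29, 6.90 and 6.95 at 1 h. It passed with 0.62 ± 0.18 (adjusted p 0.0349) but lost the call without any array of sh14 or sh133 and without the 6 or 12 h array of scr (adjusted p up to 0.129), and with the mean over its probe sets (0.58, adjusted p 0.0525).

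Other steps of autophagy gave values short of the threshold. Atg5, the partner of ATG12, was the nearest, with 5.35, 4.83 and 5.14 at 22 h and 5.41, 5.59 and 5.70 at 1 h and a difference of -0.46 ± 0.14 (SE, limma adjusted p 0.0503). Map1lc3b gave 0.22, Gabarapl1 -0.03, Sqstm1, the p62 cargo receptor, -0.10, Ulk1, the main initiating kinase, 0.00, and Atg13, its scaffold, -0.05. Atg3, the enzyme that hands LC3 to its lipid, gave -0.15. The rest lay between -0.31 (Atg16l1) and 0.27 (Becn1), with Ulk2 and Atg12 at -0.29 each, Wipi2 at 0.25, Gabarapl2 at 0.21 and Atg7 at 0.03.

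Among the lysosomal genes Ctsb, cathepsin B, changed most evenly. Its signal was 6.77, 6.79, 6.98 and 7.34 in sh14, 6.93, 7.00, 7.17 and 7.48 in sh133, and 6.78, 6.91, 7.28 and 7.58 in scr, at 1, 6, 12 and 22 h. It increased at each step in each line, and its difference between 22 h and 1 h was 0.64 ± 0.09 (SE, 1.56-fold, limma adjusted p 0.00124). The call held under all 18 alternatives, and the next probe set had 6.35, 6.70 and 6.09 at 22 h and 5.43, 5.82 and 5.50 at 1 h in sh14, sh133 and scr. Ctsd rose by 0.49 ± 0.09 (adjusted p 0.00348), with 8.18, 7.92 and 7.83 at 22 h and 7.65, 7.35 and 7.46 at 1 h. Atp6v0d1, a subunit of the membrane sector of the proton pump, passed with 0.42 ± 0.13 (adjusted p 0.0498). It was higher at 22 h in both hairpin lines, at 7.32 in sh14 and 7.27 in sh133, but not in scr, at 6.94 against 6.97 at 1 h, and it lost the call without any array of either hairpin or the 6 or 12 h array of scr (adjusted p up to 0.248), and with no signal filter. Atp6v1h, of the pump's catalytic sector, gave -0.07, Lamp1 and Lamp2, the main lysosomal membrane proteins, gave 0.25 and -0.32, and Mcoln1, a calcium channel, gave 0.27, none past the threshold. Npc1, Ctsz, a carboxypeptidase of the cathepsin family, and Ctsa gave 0.20, -0.09 and -0.02.

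Lower at 22 h were Gla, Gusb, Npc2, Ctsl and Hexa. Gla, alpha-galactosidase A, had signals of 4.16, 3.19, 3.11 and 3.27 in sh14, 4.13, 3.39, 3.35 and 3.65 in sh133, and 3.90, 3.28, 3.56 and 3.37 in scr. The mean of the lines was 4.06 at 1 h and 3.29, 3.34 and 3.43 at 6, 12 and 22 h, and its difference at 22 h was -0.63 ± 0.13 (SE, limma adjusted p 0.00734). Gusb held its level to 12 h, with line means of 6.77, 6.68 and 6.69, and had 6.07 at 22 h, a difference of -0.70 ± 0.11 from 1 h (adjusted p 0.00204). Both calls passed on leaving out each array in turn. Npc2 differed by -0.41 ± 0.11 (adjusted p 0.0322), with -0.11 in sh14, -0.45 in sh133 and -0.67 in scr. Ctsl differed by -0.38 ± 0.10 (adjusted p 0.0212) and Hexa by -0.35 ± 0.10 (adjusted p 0.0401). The Npc2 call was lost without any array of sh133, the 1, 6 or 22 h array of scr or the 6 h array of sh14, and the Hexa call without any array of sh133 or scr or the 6 or 12 h array of sh14 (adjusted p up to 0.141 and 0.144). The Ctsl call was lost without the 1 h array of sh14, the 1 or 22 h array of sh133 or the 22 h array of scr (adjusted p up to 0.0746). With the mean over probe sets, Ctsl gave -0.13 and Npc2 -0.29, and neither passed (adjusted p 0.337 and 0.0662).

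Within the 4 arrays of sh133 and scr at 1 and 22 h that carry 1 date string, with 1 residual degree of freedom, only Ctsb (0.68, limma adjusted p 0.0266) and Atg5 (-0.67, adjusted p 0.0272) of the 36 passed, against 1240 of 12673 genes (9.78%). The other genes called over all arrays did not pass there and had the same signs. The lower ones gave -0.65 for Gusb, -0.56 for Npc2, -0.50 for Gla, -0.45 for Hexa and -0.39 for Ctsl. The higher ones gave 0.51 for Wipi1, 0.50 for Map1lc3a, 0.48 for Foxo3 and 0.47 for Ctsd, with smaller values of 0.32 for Nbr1, 0.30 for Gabarap and 0.28 for Atp6v0d1, against 0.62, 0.46 and 0.42 over all arrays.

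**Figure D4:**
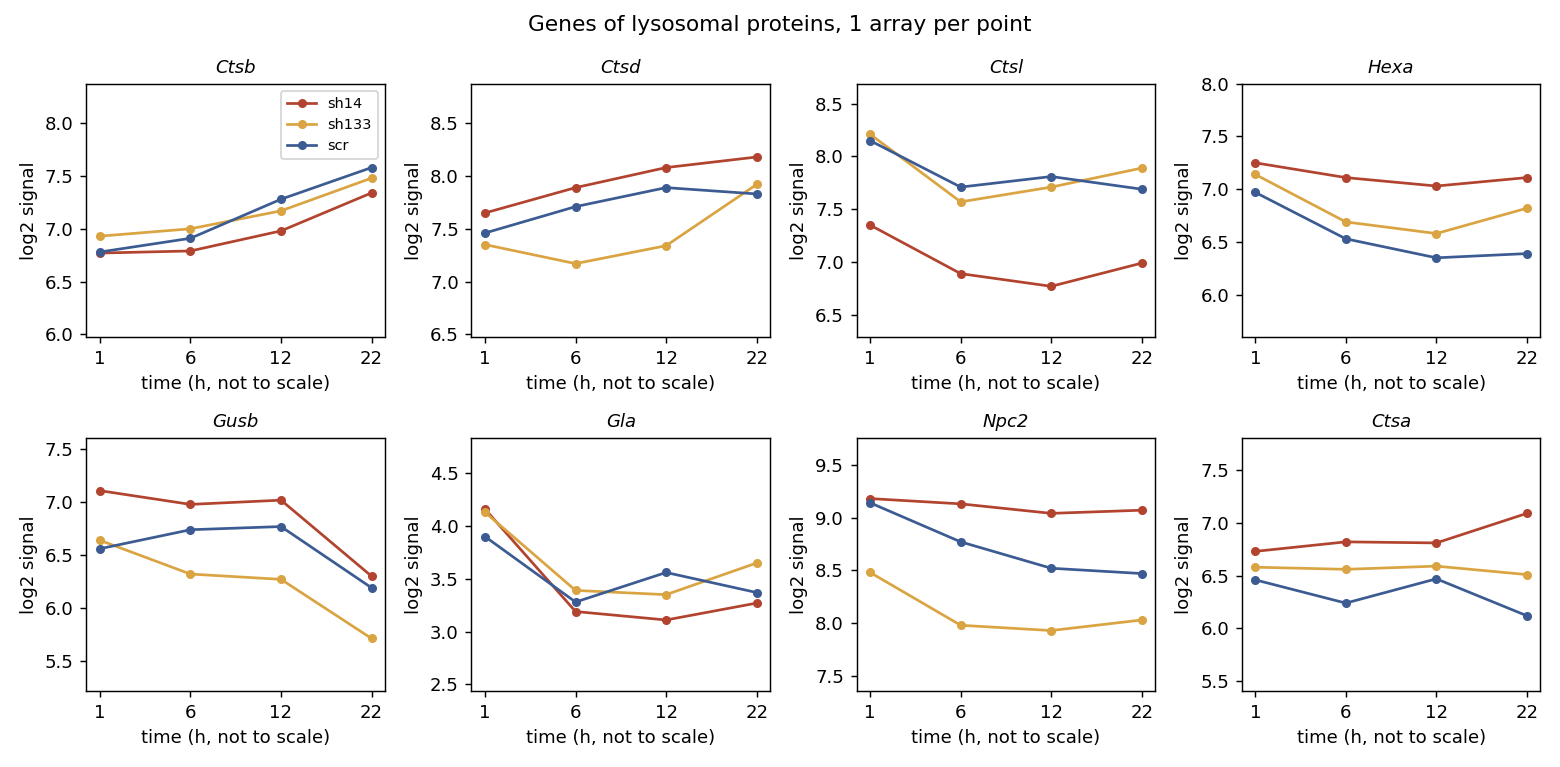
Log2 signal of 8 lysosomal genes over time, 1 array per point, with sh14, sh133 and scr as separate lines and each panel spanning the same number of log2 units. Ctsl in sh14 lies apart from the other lines, and Npc2 in sh133 lies below them at each time, with a range that overlaps scr. Ctsb increases in all 3 lines, and Gla drops between 1 and 6 h.

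Promoter sequences are shown for Ctsd, Atp6v0d1 and Gla, which all hold the palindrome TCACGTGA and passed the threshold at 22 h against 1 h. The palindrome is the long form of the E-box that TFEB and TFE3 bind at lysosomal genes. In the fit over the 3 lines Ctsd and Atp6v0d1 were higher at 22 h and Gla was lower. Atp6v0d1 was not higher in scr (6.94 at 22 h against 6.97 at 1 h). The part of the motif in these changes was not tested. The sequences are from RefSeq (GRCm38.p6), from 250 bases before to 50 after the annotated start, 5′ to 3′ on the minus strand, with TCACGTGA in capitals. They lie at chr7:142387778-142388077 (Ctsd), chr8:105566015-105566314 (Atp6v0d1) and chrX:134600956-134601255 (Gla).
Ctsd: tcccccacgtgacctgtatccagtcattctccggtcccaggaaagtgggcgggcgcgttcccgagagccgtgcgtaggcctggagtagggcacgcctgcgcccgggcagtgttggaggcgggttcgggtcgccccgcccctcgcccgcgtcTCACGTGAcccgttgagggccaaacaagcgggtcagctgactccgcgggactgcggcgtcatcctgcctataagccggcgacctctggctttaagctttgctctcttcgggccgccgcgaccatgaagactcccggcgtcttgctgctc
Atp6v0d1: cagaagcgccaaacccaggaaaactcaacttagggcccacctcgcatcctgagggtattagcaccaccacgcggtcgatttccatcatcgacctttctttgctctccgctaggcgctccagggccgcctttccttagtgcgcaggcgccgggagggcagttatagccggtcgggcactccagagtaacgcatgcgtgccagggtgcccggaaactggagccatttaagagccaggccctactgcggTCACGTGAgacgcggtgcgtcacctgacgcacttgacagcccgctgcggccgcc
Gla: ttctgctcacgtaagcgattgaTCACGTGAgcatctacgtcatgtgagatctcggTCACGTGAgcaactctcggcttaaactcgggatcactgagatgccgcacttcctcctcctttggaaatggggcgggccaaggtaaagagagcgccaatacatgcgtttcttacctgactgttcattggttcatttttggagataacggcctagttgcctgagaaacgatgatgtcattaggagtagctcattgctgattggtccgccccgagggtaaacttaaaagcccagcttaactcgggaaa

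The palindrome begins 99 bases before the start in Ctsd, 4 before it in Atp6v0d1, and 228 and 195 before it in Gla, which holds 2 copies. Of the 37 genes, 29 had a promoter entry, with 34 entries in all. TCACGTGA was found in 6 of the 34 entries (17.6%), against 320 of 32851 promoters in the table (0.974%). By group it was in 5 of 13 lysosomal entries (Ctsa, Ctsd, Gla, Mcoln1 and Atp6v0d1) and in 1 of 15 entries of the autophagy machinery (Atg3). Of these, Ctsa, Mcoln1 and Atg3 passed in no comparison. The shorter CACGTG, which every TCACGTGA also contains, was in 10 of 34 entries (29.4%, against 7.15% of all). Searched on both strands, the forkhead motif TGTTTAC was in 0 of 34 (3.65% of all) and the GATA motif AGATAA was in 3, those of Ctsz, Gla and Npc2 (8.82%, against 11.2% of all). A match describes the letters of this window and not a bound site.

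The hairpins' course over time was compared with that of scr by the difference of slopes on log2 hours. None of the 36 genes passed (limma, 4 genes of 12673, 0.0316%), and 14 of the 36 and 2049 of all genes had an unadjusted p under 0.05. Sqstm1 came nearest, with 6.63, 6.92, 7.04 and 7.01 in sh14 and 7.03, 6.91, 7.01 and 7.22 in sh133, against 7.06, 6.79, 6.76 and 6.18 in scr. At 22 h it was 0.84 higher in sh14 and 1.04 higher in sh133 than in scr, while at 1 h the differences were -0.44 and -0.03. The slope difference was 0.24 ± 0.04 log2 per doubling of hours (SE, adjusted p 0.0819). Foxo3 (0.18), Nbr1 (0.19), Lamp2 (0.17) and Atp6v0d1 (0.15) had slope differences of the same sign that did not pass either. Leaving out the 1 or the 22 h array of sh133 gave 3 genes past the threshold among the 36 and 361 among all genes.

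The share of each gene's variation over the 12 arrays that lay between lines or between times separated the genes. Between lines lay 96.6% of the variation of Map1lc3b, 80.6% for Npc2, 77.9% for Ctsa, 77.5% for Ctsl and 74.2% for Gabarapl1. Between times lay 87.0% for Ctsb, 82.8% for Gla, 82.6% for Wipi1, 70.3% for Gabarap and 67.1% for Foxo3. The median gene of the 36 had 28.5% between lines and 32.1% between times, against 30.5% and 29.5% over all genes tested. Sqstm1, with 66.7% in neither, and Atg7, with 72.8% in neither, were among the least ordered. For Sqstm1 the scr array of 22 h was the low point.

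**Figure D5:**
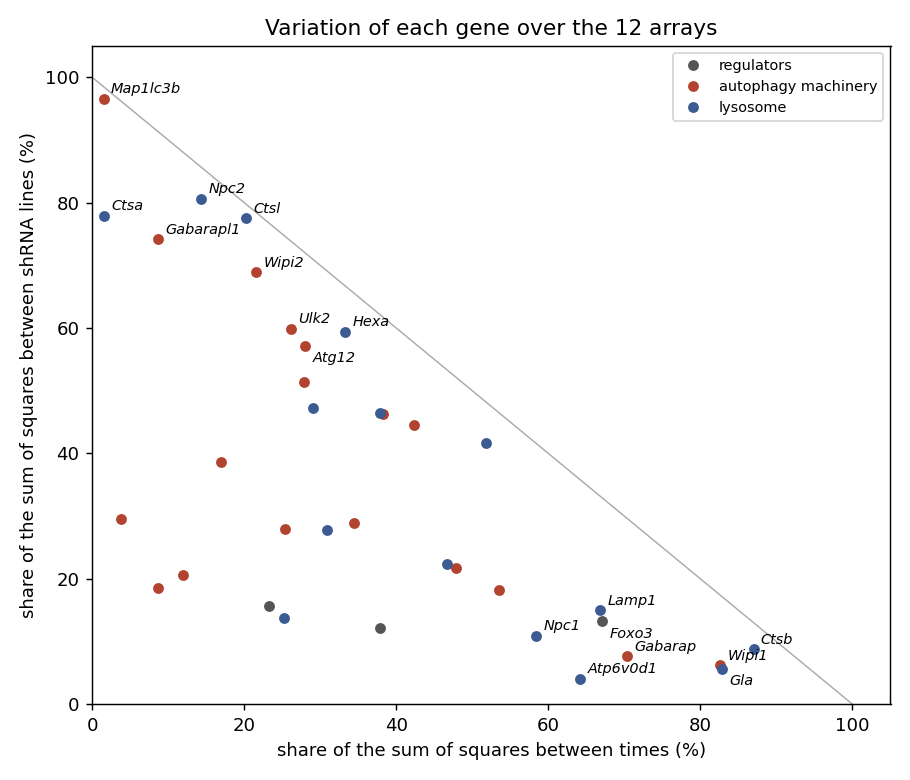
Share of the sum of squares over the 12 arrays that lies between the 4 times (horizontal, %) and between the 3 lines (vertical, %), 1 point per gene, coloured by group, with the diagonal where the shares add up to 100%. Map1lc3b sits at the top left with 96.6% between lines, and Ctsb, Gla and Wipi1 sit at the lower right with over 80% between times.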

How the data were processed

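Per the labels' protocols, RNA was amplified and biotin-labelled before hybridisation to Affymetrix mouse arrays. The deposited values are log2 probe set signals, for which the submitters' processing notes name RMA without a version. They run from 0.04 to 13.1 over 45101 probe sets. RMA equalises the arrays' distributions, so a change in total RNA per cell cannot be read. By the platform annotation 34958 probe sets name a single gene, 932 name several and 9211 are unnamed, and 34754 of the first were matched by Entrez identifier to RefSeq symbols.

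The brightest probe set stood for a gene, and genes under the 40th percentile (log2 1.45) were left out. All differences come from limma 3.58.1 (R 4.3.3), two-sided, with shRNA, time and title date string as terms (5 residual degrees of freedom, 4 for slopes) and Benjamini-Hochberg adjustment over all 12673 genes, threshold 0.05. The script was tested on simulated data. Motifs were searched with Python 3.11.15. All 37 genes are named by rule, and up to 4 past the threshold from each further list. The genes and lists were chosen with earlier results of these data known. Alternatives left out each array in turn, dropped the date term, changed the filter or the probe set rule, added an intensity trend, or kept to 1 date string.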

Additional observations from a re-analysis of the deposited data

Results flagged for a closer look

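On 5 of 108 sets of 4 arrays (1 gene in 1 line), a single array stood far from the other 3, and chance gives about 1 in 20. Becn1 in sh133 was 7.62 at 1 h, with 8.08 to 8.12 at the later times. Atg12 in scr was 5.88 at 1 h, with 5.10 to 5.17 later. Gabarapl1 in sh14 was 7.45 at 1 h, with 7.82 to 7.87 later. Gla in sh14 was 4.16 at 1 h, with 3.11 to 3.27 later. Gusb in sh14 was 6.30 at 22 h, with 6.98 to 7.11 earlier. All 5 are the first or the last time of a line, so within that line an array effect and a time course cannot be told apart. Gla was also highest at 1 h in sh133 and scr (4.13 and 3.90), and Gusb was also lowest there at 22 h (5.71 and 6.19). For Becn1, Atg12 and Gabarapl1 the flagged low or high point at 1 h was not shared by both other lines.

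For 3 genes the hairpins lay on opposite sides of the scr array at all 4 times. Map1lc3b was lower in sh14 and higher in sh133 than in scr, and sh14 minus sh133 was -1.58 (limma adjusted p 3.7e-05). Gabarapl1 was higher in sh14 and lower in sh133, with 0.64 (adjusted p 0.0122), although sh133 was within 0.03 of scr at 1 and 22 h. Npc2 was higher in sh14 and lower in sh133, with 1.10 (adjusted p 0.000608), although sh14 was within 0.04 of scr at 1 h.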

How the results depend on the processing

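The title date term changed most counts. Without it, both hairpins against scr gave 2049 genes in place of 276 (4 of the 36 in place of 0), sh14 against scr 3003 in place of 388 (9 in place of 2), sh133 against scr 1592 in place of 622 (3 in place of 0), and sh14 against sh133 3132 in place of 1856 (12 in place of 9). Within 1 date string, sh14 against sh133 gave 2366 genes (13 of the 36), sh133 against scr 254 (0 of the 36), and 22 h against 1 h gave 1240 in place of 2291 (2 of the 36 in place of 13). A filter at the 60th percentile gave 4 of the 36 in sh14 against scr, 2 in sh133 against scr, and 1 gene for knockdown by time. The mean over probe sets gave 0 genes for knockdown by time and reversed Wipi2 (0.06). An intensity trend gave 1, 4 and 2 of the 36 for both hairpins, sh14 and sh133 against scr, and 130 genes (2 of the 36) for knockdown by time.

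Leaving out each array in turn gave 59 to 384 genes for both hairpins against scr (0 to 1 of the 36), 87 to 555 for sh14 (1 to 3), 135 to 734 for sh133 (0 to 1), 390 to 2206 for sh14 against sh133 (3 to 11), 1146 to 2273 for 22 h against 1 h (5 to 11) and 0 to 361 for knockdown by time (0 to 3). The arrays that lowered the count of the 36 most were those of sh133, at 12 h (3) and 6 h (4), with sh14 at 12 h (5), for sh14 against sh133, and at 1 and 22 h (5 each) for 22 h against 1 h. Fewer arrays sit in those fits. Without an sh133 array, the other sh133 array of the same date string is fitted exactly by the date term. It then adds nothing to the residual spread. Other causes were not tested. Of the calls, 3 of 9 between the hairpins (Map1lc3b, Ctsd, Npc2), 1 of 13 in time (Ctsb) and 0 of 2 for sh14 against scr held under every alternative. No paired analysis was possible because replicate numbers follow deposit order, and time, a term in every fit, already matches arrays across lines. The number of arrays limits precision.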

Other observations

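Genes of the same pathways outside the 37 were counted in the same fits. Of 37 further lysosomal genes tested, 10 changed at 22 h against 1 h (27.0%, against 18.1% of all genes), 3 higher and 7 lower. Lipa, the acid lipase, differed by -1.15, Lgmn, the asparaginyl protease legumain, by -0.82, Ctsf, cathepsin F, by 0.69 and Tmem192, a lysosomal membrane protein, by -0.65. Between sh14 and sh133 10 of these genes also changed (27.0%, against 14.6%), 9 higher and 1 lower in sh14, with Ctsf at -2.14, Glb1, beta-galactosidase, at 1.06, Tmem192 at 0.74 and Fuca1, a fucosidase, at 0.72. Against scr, 1 of the 37 passed for both hairpins together (2.7%, against 2.18% of all genes), Lgmn at -0.72 (limma adjusted p 0.0313). In sh14 0 of 37 passed (3.06% of all genes), and in sh133 3 of 37 (8.11%, against 4.91%). These 3 were Ctsf at 1.5, Lgmn at -0.71 and Laptm4a at 0.54. Of 13 further proton pump genes, 2 were higher at 22 h (15.4%, against 18.1% of all genes), Atp6v1d by 0.59 and Atp6v0e by 0.51.

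Of 33 further genes of the autophagy machinery, 7 changed at 22 h against 1 h (21.2%, near the 18.1% of all genes), 5 higher and 2 lower. Wdr45b, a WIPI family member, differed by -0.91, Stx17, the syntaxin of autophagosome fusion, by 0.67, Atg2b, a lipid transfer protein, by 0.55, and Atg4d, an LC3-processing protease, by 0.47. Between sh14 and sh133 3 of the 33 changed (9.09%, against 14.6%), with Vamp8, a SNARE of autophagosome fusion, at 0.83, Atg2b at 0.50 and Atg4d at -0.79, and Atg4d also differed by -0.84 between sh14 and scr. Of 16 further mitophagy genes, 3 were higher in sh14 than in sh133 (18.8%, against 14.6%), namely Pink1, the mitochondrial kinase, by 1.10, Phb2, an inner membrane receptor, by 0.78 and Vps13d by 0.52, and 1, Marchf5, was higher at 22 h (6.25%, against 18.1%). Of 20 genes that control autophagy, 6 changed at 22 h (30.0%, against 18.1%), 4 higher and 2 lower, with Mitf, a relative of TFEB, at 0.93 and Fnip2, a folliculin partner, at 0.67. Mitf was also higher in sh14, by 1.10 than in sh133 (limma adjusted p 0.000522) and by 1.03 than in scr (adjusted p 0.0195). MITF is also known as a factor of the mast cell lineage, and 3 of the 6 markers of mast cells and basophils tested were higher in sh14 than in sh133, whose part in this difference was not tested.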
